A study of Macaca mulatta with 16 samples.

Results

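The transcripts of 10 antioxidant enzymes were examined in the lungs of rhesus macaque fetuses that had been exposed to bacterial lipopolysaccharide (LPS), a cell wall component of Gram-negative bacteria that is used to model intrauterine infection. The 10 were the superoxide dismutases SOD1, SOD2 and SOD3, catalase (CAT), the glutathione peroxidases GPX1 and GPX2, the thioredoxin reductase TXNRD1, the quinone reductase NQO1, the modifier subunit of glutamate-cysteine ligase GCLM, and the peroxiredoxin PRDX1. They were chosen by name, but with earlier results of these data known. Each matched exactly 1 gene of the 22515 in the count table through its rhesus Ensembl identifier. All 10 were among the 19192 genes that passed the filter on low counts.

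The lung tissue was bulk RNA from 16 fetuses in 5 groups, with 1 library for each animal. Preterm controls (n = 4) had no intervention and were delivered at 131 to 135 days of gestation, and term controls (n = 2) had no intervention and were delivered at 156 to 157 days. LPS 16h animals (n = 4) received 1 mg of LPS by intraamniotic injection and were delivered 16 hours later, at 130 to 131 days. LPS 5d animals (n = 3) received the same dose and were delivered after 5 days, at 131 to 134 days. LPS + Beta-Ac 5d animals (n = 3) received the same dose of LPS and were delivered after 5 days at 131 to 132 days. Together with the LPS, their mothers received 0.125 mg/kg of betamethasone-acetate, a long-acting glucocorticoid, by intramuscular injection. The controls had no sham injection, so LPS and the injection itself cannot be told apart, and no group used here received betamethasone-acetate alone. Term controls were also older than all other animals and numbered only 2.

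Total counts were 20169363 to 28348816 in the preterm controls, 30596371 to 48052891 at LPS 16h and 20214144 to 27616930 in the other 3 groups, so every LPS 16h library was deeper than every other library. The summed level of 11 lung epithelial markers was 9410 to 12880 CPM (counts scaled to a common library total) in preterm controls and 9788 to 17740 CPM at LPS 16h. It was 16030 to 22560 CPM at LPS 5d, 16740 to 22200 CPM with LPS + Beta-Ac and 16800 to 18480 CPM at term. All animals of the last 3 groups were thus above all preterm controls. Surfactant genes weigh heavily in this sum, such as SFTPB, at 2580 to 3050 CPM in preterm controls and 4190 to 7500 CPM at LPS 5d. Of the 11 markers 9 were higher and 2 lower at LPS 5d. CAV1 was lower, at 1680 to 2270 CPM in preterm controls and 1090 to 1380 CPM at LPS 5d, and EPCAM overlapped. The sum is therefore no measure of epithelial cell number, and the part of epithelial cells in the enzyme differences was not tested. No epithelial marker was at 0 in any group. The third principal component of all tested genes, which held 9.47% of the variance, set preterm control 209, term control 200, LPS 16h animal 029 and LPS 5d animal 240 apart from the rest of their groups. Levels are CPM adjusted with TMM factors, which offset differences in library composition, a difference is the log2 fold change (log2FC) fitted with limma to all 16 animals, and a gene is said to have risen or fallen where its Benjamini-Hochberg adjusted p was below 0.05 and the difference was at least 2-fold. Reads per gene depend on transcript length, so levels are compared between animals and not between genes. The 4 comparisons with preterm controls share the same 4 control animals and are therefore given side by side.

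Superoxide is formed by the respiratory chain and by the NADPH oxidase of phagocytes, and superoxide dismutases convert it to hydrogen peroxide. Catalase, glutathione peroxidases and peroxiredoxins then remove the peroxide, with reducing power that comes from glutathione and from thioredoxin. Many of these genes are targets of the transcription factor NRF2 (encoded by NFE2L2), whereas SOD2 is a classic target of NF-κB in inflammation, and in the fetal lung several of the enzymes are known to increase toward birth.

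At 16 hours after LPS, 5 of the 10 enzymes had risen against preterm controls and none had fallen. The 5 were SOD2, CAT, GPX1, GPX2 and TXNRD1, while 14.4% of all tested genes passed the same thresholds in either direction. The median log2FC of the 10 enzymes was 0.93, beside −0.09 for all tested genes. PRDX1 reached the adjusted p but not 2-fold, and SOD1, SOD3, NQO1 and GCLM reached neither. At 5 days SOD2 was the sole enzyme called against preterm controls, after LPS and also after LPS + Beta-Ac.

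**Figure D1:**
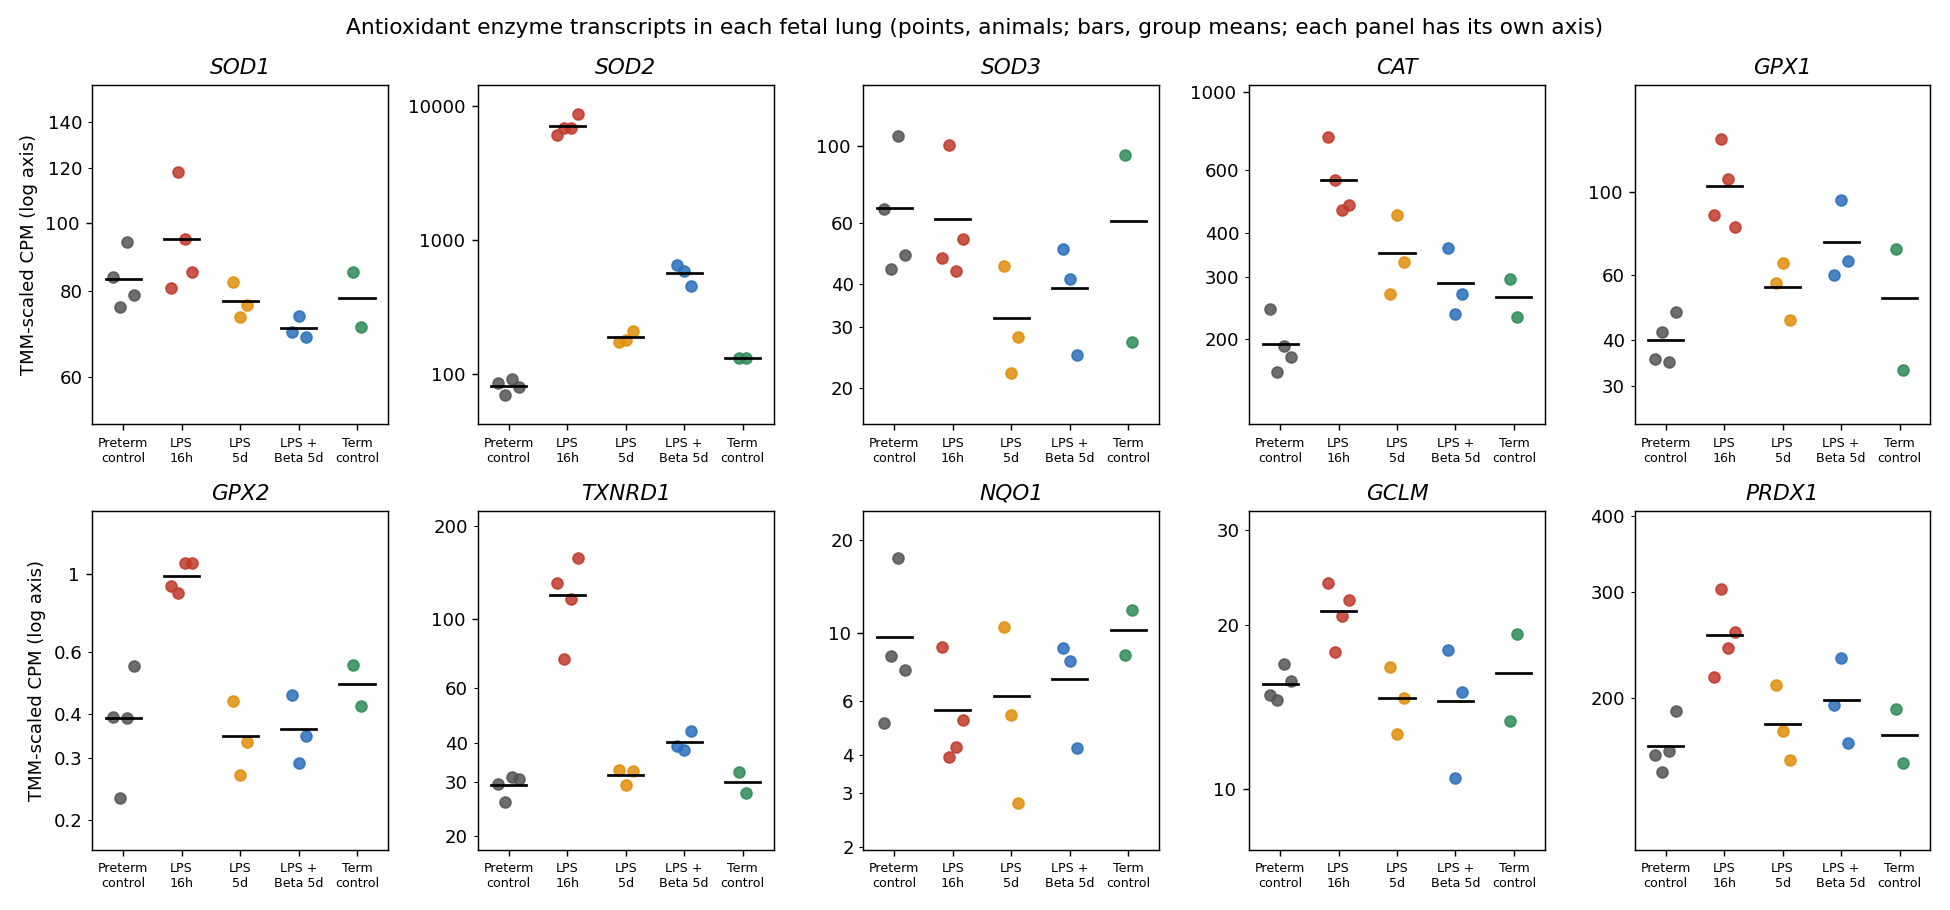
TMM-scaled CPM of each of the 10 enzymes in each animal, by group, on log axes that differ between panels; points are animals and bars are group means. SOD2 in the 4 LPS 16h animals lay at 6018 to 8666 CPM, above every other animal, whereas SOD3 and NQO1 spread widely within groups.

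SOD2 encodes the manganese superoxide dismutase of the mitochondrial matrix. Its level was 69.6, 79.9, 84.6 and 91.8 CPM in the preterm controls and 6018, 6798, 6864 and 8666 CPM at LPS 16h. The lowest LPS 16h animal was far above the highest control, and the groups did not overlap. The difference was 6.44 ± 0.13 (log2FC ± SE), an 86.6-fold rise with a 95% confidence interval (CI) of 71 to 106 (limma adjusted p = 1.38e-13), and SOD2 had the lowest p of all 19192 genes in this comparison. SOD2 alone took 0.553% to 0.796% of all counts in the LPS 16h libraries, where the Wilson 95% interval of the lowest was 0.551% to 0.556%, against 0.00746% to 0.00913% in preterm controls. These intervals cover counting error only.

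At 5 days the SOD2 level was 172, 179 and 209 CPM after LPS and 453, 580 and 653 CPM after LPS + Beta-Ac. All 3 LPS 5d animals were above all 4 preterm controls, and all 3 LPS + Beta-Ac animals were above all 3 LPS 5d animals. Against preterm controls SOD2 rose by 1.20 ± 0.14 after LPS (2.29-fold, CI 1.85 to 2.84, limma adjusted p = 0.000292). It rose by 2.78 ± 0.14 after LPS + Beta-Ac (6.85-fold, CI 5.53 to 8.49, limma adjusted p = 5.43e-08). These were the sole calls among the 10 enzymes, where 4.84% and 6.49% of all tested genes were called.

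The addition of betamethasone-acetate to LPS was examined by comparing the 2 groups delivered after 5 days. SOD2 was 1.58 ± 0.16 higher with LPS + Beta-Ac than with LPS alone (2.99-fold, CI 2.38 to 3.76, limma adjusted p = 0.000731), in 3 of 3 animals. It was 1 of only 20 genes called in this comparison (0.104% of those tested) and had the lowest p among them. With only these 6 animals fitted, the log2FC was 1.58 and the adjusted p was 0.0685. The other 9 enzymes did not pass the test, and their log2FC ran from −0.27 for CAT to 0.38 for GPX1.

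In term controls SOD2 was 130.1 and 130.4 CPM. Both animals were above all 4 preterm controls, by 0.68 ± 0.16 (1.61-fold, CI 1.26 to 2.05, limma adjusted p = 0.0335), which was under the 2-fold minimum, so no enzyme was called there at a background of 2.07%. By limma, 1 of the 10 enzymes, SOD2, was also at an unadjusted p below 0.05 in that comparison. Against term controls, LPS 5d called no enzyme at a background of 0.0625%, with SOD2 1.43-fold higher (CI 1.1 to 1.84, limma adjusted p = 0.282) and 1 enzyme at an unadjusted p below 0.05. LPS + Beta-Ac 5d called 1 enzyme at a background of 0.568%, SOD2, which was 4.26-fold higher than at term (CI 3.3 to 5.51, limma adjusted p = 7.43e-05).

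Leukocyte markers moved in the same groups. In bulk tissue, more cells of a type and more RNA per cell cannot be told apart. The summed level of 10 neutrophil markers was 18.7 to 51.7 CPM in preterm controls, 1361 to 2130 at LPS 16h, 67.7 to 116.7 at LPS 5d, 160 to 353.3 with LPS + Beta-Ac and 102.2 to 138 at term. The calprotectin genes S100A8 and S100A9 held 85.1% to 90.4% of that sum at LPS 16h and 14.8% to 27.5% in preterm controls. The other 8 markers alone, a choice made after these values were seen, summed to 13.6 to 44.1 CPM in preterm controls and 143 to 267 at LPS 16h.

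The summed level of 12 macrophage and monocyte markers was 161 to 282 CPM in preterm controls, 976 to 1108 at LPS 16h, 329 to 387 at LPS 5d, 547 to 957 with LPS + Beta-Ac and 285 to 480 at term. Of these markers, MARCO was at 0 in all 4 preterm controls, and no neutrophil marker was at 0 in a whole group. Against preterm controls 7 of the 10 neutrophil markers rose at LPS 16h, 3 at LPS 5d, 7 with LPS + Beta-Ac and 3 at term. Of the 12 macrophage and monocyte markers 9, 7, 11 and 2 rose in the same order. Of all tested genes 14.4%, 4.84%, 6.49% and 2.07% were called there, in either direction. CEACAM8, among the neutrophil markers, passed the filter on low counts only through the LPS 16h animals. Between LPS + Beta-Ac and LPS 5d, 0 of the 10 and 1 of the 12 were called, beside 0.104% of all tested genes. Without regard to calls, 9 of the 10 and 12 of the 12 were higher with LPS + Beta-Ac there. Their median log2FC was 1.685 and 1.264, beside 1.58 for SOD2. Relative to the preterm mean, SOD2 stood at 87-fold, the neutrophil sum at 47.9-fold, the sum of the other 8 neutrophil markers at 7.33-fold and the macrophage sum at 4.99-fold at LPS 16h. With LPS + Beta-Ac the same 4 values were 6.9, 6.59, 4.53 and 3.76, and at LPS 5d they were 2.29, 2.48, 2.25 and 1.69. At LPS 5d and at term SOD2 stood below the neutrophil sum, and at term the values were 1.6-fold and 3.46-fold. The part of leukocytes in the SOD2 differences was not tested.

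**Figure D2:**
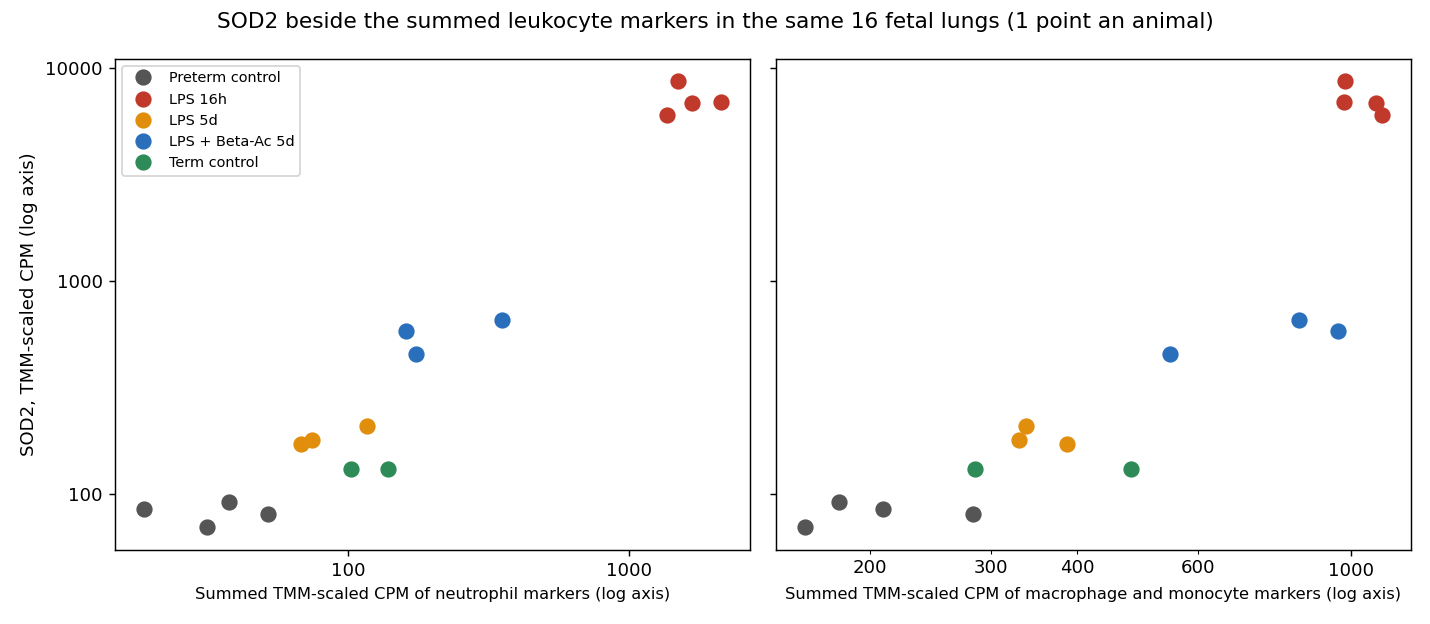
SOD2 (TMM-scaled CPM, log axis) against the summed TMM-scaled CPM of 10 neutrophil markers (left) and of 12 macrophage and monocyte markers (right), on log axes, with 1 point an animal and colours for the 5 groups. The 4 LPS 16h animals lie above all others in SOD2 on both panels, while the 3 LPS + Beta-Ac animals reach macrophage sums of 547 to 957 CPM at SOD2 levels of 453 to 653 CPM.

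SOD1, the copper and zinc dismutase of the cytosol, was not called in any of the 8 comparisons. Its level was 75.7 to 94 CPM in preterm controls and 80.6 to 118 CPM at LPS 16h, and the groups overlapped. The log2FC was 0.18 (CI −0.07 to 0.43, limma adjusted p = 0.253), and it was −0.03 when libraries were scaled by their totals alone, a scaling that also moved the median of all tested genes from −0.09 to −0.29. Among the 5-day groups the largest SOD1 difference from preterm controls was with LPS + Beta-Ac (log2FC −0.23, CI −0.50 to 0.04, limma adjusted p = 0.249). The animals of that group, at 68.7 to 73.5 CPM, were all below the preterm controls, but the difference did not pass the test. CCS, the chaperone that loads copper onto SOD1, was at 28.03 CPM in preterm controls and 17.9 CPM at LPS 16h, a difference of −0.64 that reached an adjusted p of 0.000279 but not 2-fold.

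SOD3, the extracellular dismutase that binds to matrix, varied more among animals of a group than between groups. Preterm controls were at 44.1, 48.5, 65.8 and 106.8 CPM, LPS 16h animals at 43.5, 47.4, 54 and 100.4 CPM, and the 2 term controls at 27.1 and 94.3 CPM. The coefficient of variation was 33.3% to 78.3% within the 5 groups. LPS 5d animals were at 22.1, 28 and 45.1 CPM, of which 2 were below all preterm controls, and the log2FC was −1.04 with a CI of −1.99 to −0.08 and a limma adjusted p of 0.142. With LPS + Beta-Ac it was −0.74 (CI −1.70 to 0.21, limma adjusted p = 0.291). Both intervals were wide, and single animals within each of these 3 groups differed by over 2-fold. All 10 vascular smooth muscle and fibroblast markers also had a log2FC below 0 against preterm controls in both 5-day groups and at term. At LPS 16h 8 of the 10 did. The list median was −0.73 at LPS 5d (none called), −0.83 with LPS + Beta-Ac (2 called), −1.02 at term (3 called) and −0.67 at LPS 16h (2 called). Of all tested genes 4.84%, 6.49%, 2.07% and 14.4% were called in the same order, in either direction. The log2FC of SOD3 was only −0.30 at term and −0.11 at LPS 16h. The summed level of the 10 markers was 9559 to 14540 CPM in preterm controls, 5718 to 10050 CPM at LPS 5d and 5567 to 7773 CPM with LPS + Beta-Ac. It was 5199 to 6287 CPM at term and 7487 to 10090 CPM at LPS 16h. Their part in the SOD3 values was not tested.

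CAT, the peroxisomal enzyme that splits hydrogen peroxide without a reductant, also rose early. Preterm controls were at 162, 178, 191 and 244.5 CPM and LPS 16h animals at 463, 480.7, 565 and 745 CPM. The groups did not overlap, and CAT rose by 1.53 ± 0.20 at LPS 16h (2.2e-05 by limma, adjusted). At LPS 5d the 3 animals were at 269, 331 and 450.2 CPM, all above the highest preterm control. That difference was 0.84 ± 0.21 (1.79-fold, CI 1.31 to 2.44, limma adjusted p = 0.0158), under the 2-fold minimum. Without LPS 5d animal 239 it was 1.01 and CAT was called. With LPS + Beta-Ac the CAT level was 235, 269 and 362.5 CPM, where the lowest animal fell within the preterm range, and the log2FC was 0.57 (CI 0.12 to 1.02, limma adjusted p = 0.0807). Term controls were at 232 and 295.5 CPM (log2FC 0.45, CI −0.06 to 0.96, limma adjusted p = 0.339). Red cells are rich in catalase, and the summed level of 8 erythroid markers was 218 to 656 CPM in preterm controls, 205 to 642 CPM at LPS 16h and 132 to 413 CPM at LPS 5d. Most of that sum was the globin gene HBA1, at 408 CPM in preterm controls and 308.5 CPM at LPS 16h. Of the 8 markers 7 were higher at LPS 16h than in preterm controls (list median log2FC 0.68, none called). Against the same controls 8 were lower at LPS 5d (−0.88, 1 called), and 5 were called higher at LPS 16h than at LPS 5d. Of all tested genes 14.4%, 4.84% and 14.7% were called in these comparisons in turn, in either direction. The part of red cells in the CAT differences was not tested.

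**Figure D3:**
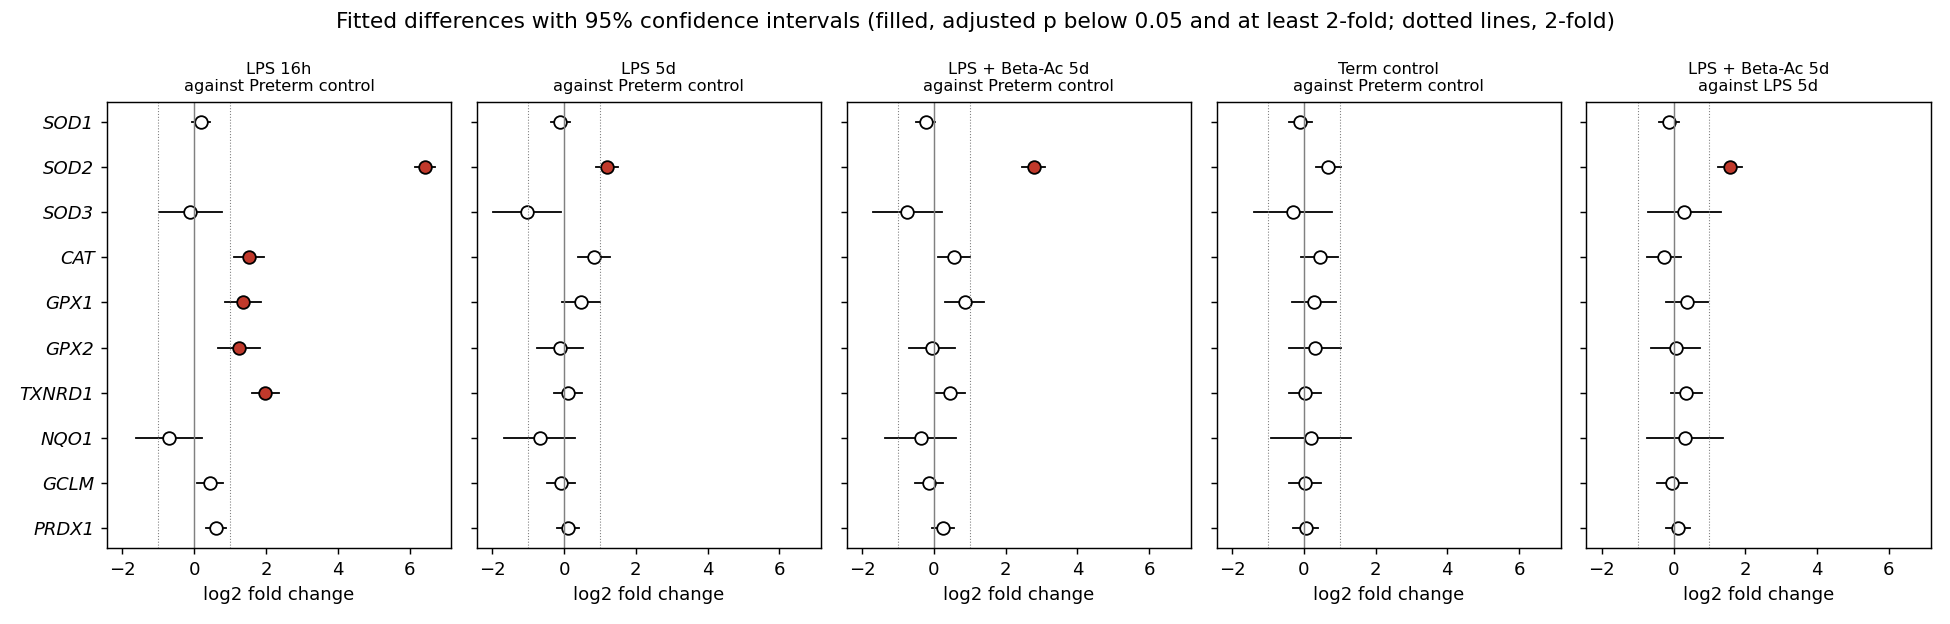
Fitted log2 fold change of each enzyme with its 95% confidence interval in 5 comparisons; filled points had an adjusted p below 0.05 and at least a 2-fold difference, and dotted lines mark 2-fold. At LPS 16h 5 enzymes were called, and in the 3 comparisons at 5 days SOD2 alone was called.

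GPX1, the selenium-dependent peroxidase of the cytosol, was at 34.8, 35.6, 42 and 47.6 CPM in preterm controls and at 80.6, 86.7, 108 and 139.7 CPM at LPS 16h. The groups did not overlap, and GPX1 rose by 1.35 ± 0.24 (limma adjusted p = 0.000365). With LPS + Beta-Ac it was at 59.7, 65.2 and 95.2 CPM, again above all preterm controls, but the difference of 0.86 ± 0.25 (1.81-fold, CI 1.24 to 2.63, limma adjusted p = 0.0299) was under the 2-fold minimum. At LPS 5d the log2FC was 0.47 (CI −0.07 to 1.02, limma adjusted p = 0.246), with the lowest animal, at 45.3 CPM, below the highest preterm control. The 2 term controls, at 33.1 and 70.6 CPM, lay on either side of all 3 LPS 5d animals.

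GPX1 also moved with the third principal component. In 5 of 5 groups the animal with the lowest score on that component had the highest GPX1 of its group, and over the 16 animals the deviations of GPX1 from its group means had a Pearson r of −0.88 with those of the component. Only 2.17% of all tested genes had an r below −0.8 in this respect. PRDX1 followed in 4 of 5 groups (r = −0.66) and GCLM ran the other way (r = 0.65), whereas the r of SOD2 was 0.21 and that of CAT 0.01. These are descriptions over 16 libraries that share the component's genes, and what the component reflects was not tested. Without LPS 16h animal 029, which had the highest GPX1 of its group, GPX1 was still 1.23 higher at LPS 16h than in preterm controls (limma adjusted p = 0.00105).

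**Figure D4:**
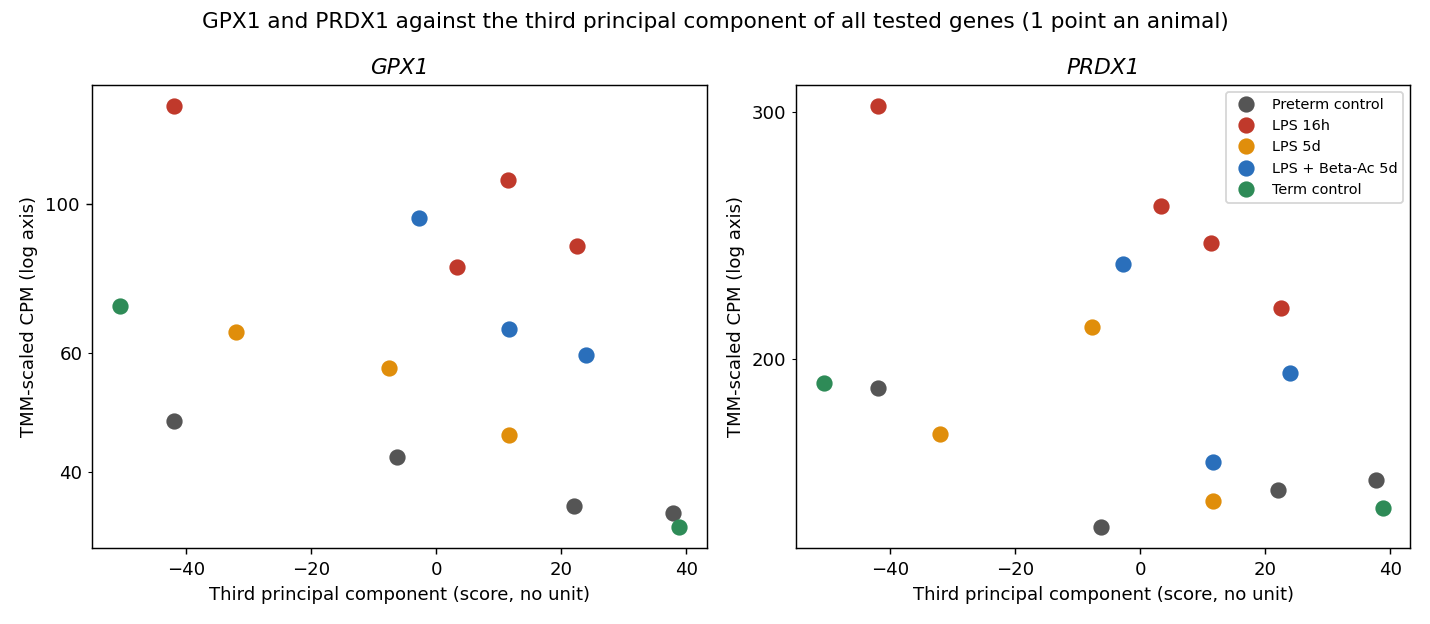
GPX1 (left) and PRDX1 (right), as TMM-scaled CPM on log axes, against the score on the third principal component of all tested genes, with 1 point an animal and colours for the 5 groups. Within each group the animal farthest to the left has the highest GPX1, and the LPS 16h animals lie above the preterm controls at like scores.

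GPX2, a peroxidase best known from gut epithelium, was close to the limit of detection. Its counts ran from 5 to 46 over the 16 libraries, and it reached the filter of 0.371 CPM in 11 animals, 7 of them outside LPS 16h. Preterm controls were at 0.231, 0.39, 0.392 and 0.546 CPM and LPS 16h animals at 0.88, 0.924, 1.07 and 1.08 CPM, without overlap, and GPX2 rose by 1.24 ± 0.28 (limma adjusted p = 0.00248). After the LPS 16h libraries were thinned to the smallest total, 20169363 counts, the difference was 0.87 (limma adjusted p = 0.0382), and GPX2 was no longer 2-fold higher. In the 3 other groups it was at 0.269 to 0.551 CPM, within or close to the preterm range.

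TXNRD1, the cytosolic selenoenzyme that reduces thioredoxin, had the largest difference after SOD2. Preterm controls were at 25.8, 29.4, 30.6 and 31.1 CPM, and LPS 16h animals at 74.3, 117, 131 and 157 CPM. The lowest LPS 16h animal was well above the highest control, and TXNRD1 rose by 1.99 ± 0.17 (limma adjusted p = 3.76e-07). At LPS 5d it was at 29.2, 32.5 and 32.7 CPM, a difference of 0.11 with a CI of −0.29 to 0.51, which leaves out a 2-fold rise. With LPS + Beta-Ac the 3 animals were at 38.1, 39 and 43.7 CPM, all above the preterm and LPS 5d animals, but the log2FC of 0.46 did not pass the test (CI 0.07 to 0.86, limma adjusted p = 0.105).

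PRDX1, the abundant cytosolic peroxiredoxin that thioredoxin recycles, was at 151.5 to 190.4 CPM in preterm controls and 217 to 303 CPM at LPS 16h. The groups did not overlap, with a difference of 0.61 ± 0.13 (1.52-fold, CI 1.25 to 1.86, limma adjusted p = 0.0023), under the 2-fold minimum. At 5 days and at term its log2FC against preterm controls was 0.06 to 0.25. Processed copies of SOD1, GPX1 and PRDX1 are known in primate genomes, and how reads were divided among near-identical copies is uncertain for these 3.

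Neither NQO1 nor GCLM, both targets of NRF2, was called in any of the 8 comparisons. NQO1, which reduces quinones and is commonly used as a readout of NRF2, was at 5.1, 7.57, 8.41 and 17.5 CPM in preterm controls and at 3.95, 4.24, 5.21 and 8.95 CPM at LPS 16h. The groups overlapped, and the log2FC was −0.71 (CI −1.62 to 0.21, limma adjusted p = 0.211). At LPS 5d it was −0.68 (CI −1.67 to 0.31, limma adjusted p = 0.378), and the coefficient of variation within groups was 23.4% to 62.3%. GCLM, which assists the enzyme that makes the precursor of glutathione, was at 14.6 to 17 CPM in preterm controls and 17.9 to 24 CPM at LPS 16h. These 2 groups did not overlap, but the difference of 0.44 (CI 0.07 to 0.81, limma adjusted p = 0.0559) did not pass the test. At 5 days and at term the log2FC of GCLM was −0.13 to 0.05.

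The time course was tested by comparing LPS 16h with LPS 5d, where 14.7% of all tested genes were called. Of the 10 enzymes 3 were higher at 16 hours, SOD2 by 5.24 ± 0.14 (limma adjusted p = 9.42e-12), TXNRD1 by 1.88 ± 0.19 (limma adjusted p = 2.23e-06) and GPX2 by 1.36 ± 0.30 (limma adjusted p = 0.00238). CAT (0.69), GPX1 (0.88), GCLM (0.53) and PRDX1 (0.49) reached the adjusted p but not 2-fold. The 2 groups differed in depth as well as in the interval after LPS. Gestational age at the LPS injection was 129 to 130 days for LPS 16h and 126 to 129 days for LPS 5d. After thinning of the LPS 16h libraries GPX2 was 0.99 higher (limma adjusted p = 0.033), just under 2-fold.

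The genes around the enzymes were described with 7 further lists, whose counts stand beside a share of all tested genes called in either direction of 14.4% at LPS 16h, 4.84% at LPS 5d, 6.49% with LPS + Beta-Ac and 2.07% at term, each against preterm controls. Of 16 tested sources of superoxide and peroxide, 9 rose at LPS 16h and none fell, with a list median of 1.69. NCF1, a cytosolic subunit of the phagocyte NADPH oxidase, was at 2.37 CPM in preterm controls and 40.1 CPM at LPS 16h and rose by 4.03 ± 0.25 (limma adjusted p = 8.91e-09). CYBB, the catalytic subunit of that oxidase, was at 7.12 to 14.9 CPM in preterm controls and 84.9 to 179 CPM at LPS 16h and rose by 3.58 ± 0.30 (limma adjusted p = 3.73e-07). DUOX2, the dual oxidase of epithelia, was at 0 to 0.37 CPM in preterm controls and 2.56 to 9.42 CPM at LPS 16h. DUOX2 and DUOXA2, of the same list, reached the filter of 0.371 CPM in LPS 16h animals only. Both were tested only because they were high there, so they add no support to the count of 9 or to the median.

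Of the same 16 genes 5 rose at LPS 5d, 6 with LPS + Beta-Ac and 5 at term, where 4.84%, 6.49% and 2.07% of all tested genes were called. At LPS 5d NCF1 rose by 1.74 and NCF4, another subunit, by 1.53. With LPS + Beta-Ac CYBB was at 76.2 to 142 CPM and rose by 3.22 (limma adjusted p = 2.38e-05). MPO, the myeloperoxidase of neutrophil granules and also 1 of the neutrophil markers, was called there at 0.655, 3.95 and 26.3 CPM in the 3 animals, whereas at LPS 16h it was at 0.204 to 0.72 CPM, within the range of 0.139 to 1.24 CPM in preterm controls. At term CYBB rose by 1.95.

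Of 10 other peroxidases and peroxiredoxins, 3 rose at LPS 16h and none fell. GPX3, the secreted glutathione peroxidase, was at 17 to 51.6 CPM in preterm controls, 462 to 821 CPM at LPS 16h, 62.8 to 175 CPM at LPS 5d, 129 to 161 CPM with LPS + Beta-Ac and 127 to 339 CPM at term. It rose in all 4 comparisons with preterm controls, by 4.004, 1.51, 2.02 and 2.52 (limma adjusted p = 2.61e-06, 0.0278, 0.00479 and 0.0132). SRXN1, which repairs over-oxidised peroxiredoxins, rose by 1.64 ± 0.34 at LPS 16h and by 1.28 ± 0.36 with LPS + Beta-Ac. PRDX6, the lung peroxiredoxin that also has phospholipase activity, differed from preterm controls by 0.33 at LPS 16h (limma adjusted p = 0.172) and by −0.59 with LPS + Beta-Ac (limma adjusted p = 0.0533).

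Of 10 genes of the thioredoxin and glutaredoxin system, TXN, the thioredoxin that TXNRD1 reduces, rose by 1.18 ± 0.14 at LPS 16h and MSRB1, a methionine sulfoxide reductase, by 1.25 ± 0.16. These 2 of 10 are a share close to the 14.4% of all tested genes. None was called at 5 days or at term. Of 18 genes of glutathione synthesis and use, 6 rose and 3 fell at LPS 16h, with a median of 0.23. GCLC, the catalytic partner of GCLM, was at 19.6 to 22 CPM in preterm controls and 35.9 to 59.7 CPM at LPS 16h and rose by 1.11 ± 0.16 (limma adjusted p = 7.02e-05). Cystine uptake and glutathione degradation were each represented at low levels, SLC7A11 at 0.0436 to 0.327 CPM in preterm controls and 1.25 to 2.31 CPM at LPS 16h, and CHAC1 at 0.182 to 0.284 CPM and 1.04 to 2.15 CPM. The genes that fell furthest were LTC4S, which makes leukotriene C4, by 1.58 and OPLAH, of the glutathione cycle, by 1.55 on the log2 scale. In the same list 3 genes rose at LPS 5d and 2 with LPS + Beta-Ac, among them GGT1, a glutathione hydrolase, by 1.24 and 1.66, and none was called at term.

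Of 9 NRF2 regulators, 2 rose at LPS 16h, MAFF, a small MAF protein that pairs with NRF2, by 1.53 ± 0.31 and SQSTM1, which binds KEAP1, by 1.00 ± 0.17, again a share close to the 14.4% of all tested genes. NFE2L2 itself was at 114 to 163 CPM in preterm controls and 251 to 325 CPM at LPS 16h, a difference of 0.95 ± 0.11 (limma adjusted p = 8.81e-06) just under 2-fold, and at 5 days and at term it was at 127 to 138 CPM. KEAP1, the adaptor that targets NRF2 for degradation, differed by 0.23 at LPS 16h (limma adjusted p = 0.116). SQSTM1 also rose with LPS + Beta-Ac, by 1.06 ± 0.19.

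Of 20 other NRF2 targets, 9 rose and 1 fell at LPS 16h, 4 rose at LPS 5d, 5 with LPS + Beta-Ac and 2 at term, beside 14.4%, 4.84%, 6.49% and 2.07% of all tested genes. This list shares GCLC, SLC7A11, SRXN1 and TXN with those above. HMOX1, the inducible heme oxygenase, was at 8.77 to 11.1 CPM in preterm controls, 77.7 to 105 CPM at LPS 16h, 16 to 28.6 CPM at LPS 5d and 29.8 to 52.1 CPM with LPS + Beta-Ac. No LPS-exposed animal overlapped the preterm controls, and neither did the term controls, at 15.9 and 30.7 CPM. The term mean was 23.3 CPM, beside 23.9 CPM at LPS 5d. In the LPS-exposed groups HMOX1 rose by 3.25 ± 0.23, 1.23 ± 0.25 and 2.07 ± 0.25 in turn. The iron-storage gene FTH1 averaged 637 CPM in preterm controls and rose in all 4 comparisons with them, by 2.14 at LPS 16h, 1.26 at LPS 5d, 1.496 with LPS + Beta-Ac and 1.33 at term. ME1, the cytosolic malic enzyme, fell by 1.21 on the log2 scale at LPS 16h. Of 6 tested genes of cofactor delivery only SLC39A14, a zinc, iron and manganese importer, was called, with 102 to 235 CPM at LPS 16h against 14.2 to 19.1 CPM in preterm controls and 11.4 to 15.6 CPM in the 5-day groups (log2FC 3.16 ± 0.24 against preterm controls, limma adjusted p = 1.04e-07).

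**Figure D5:**
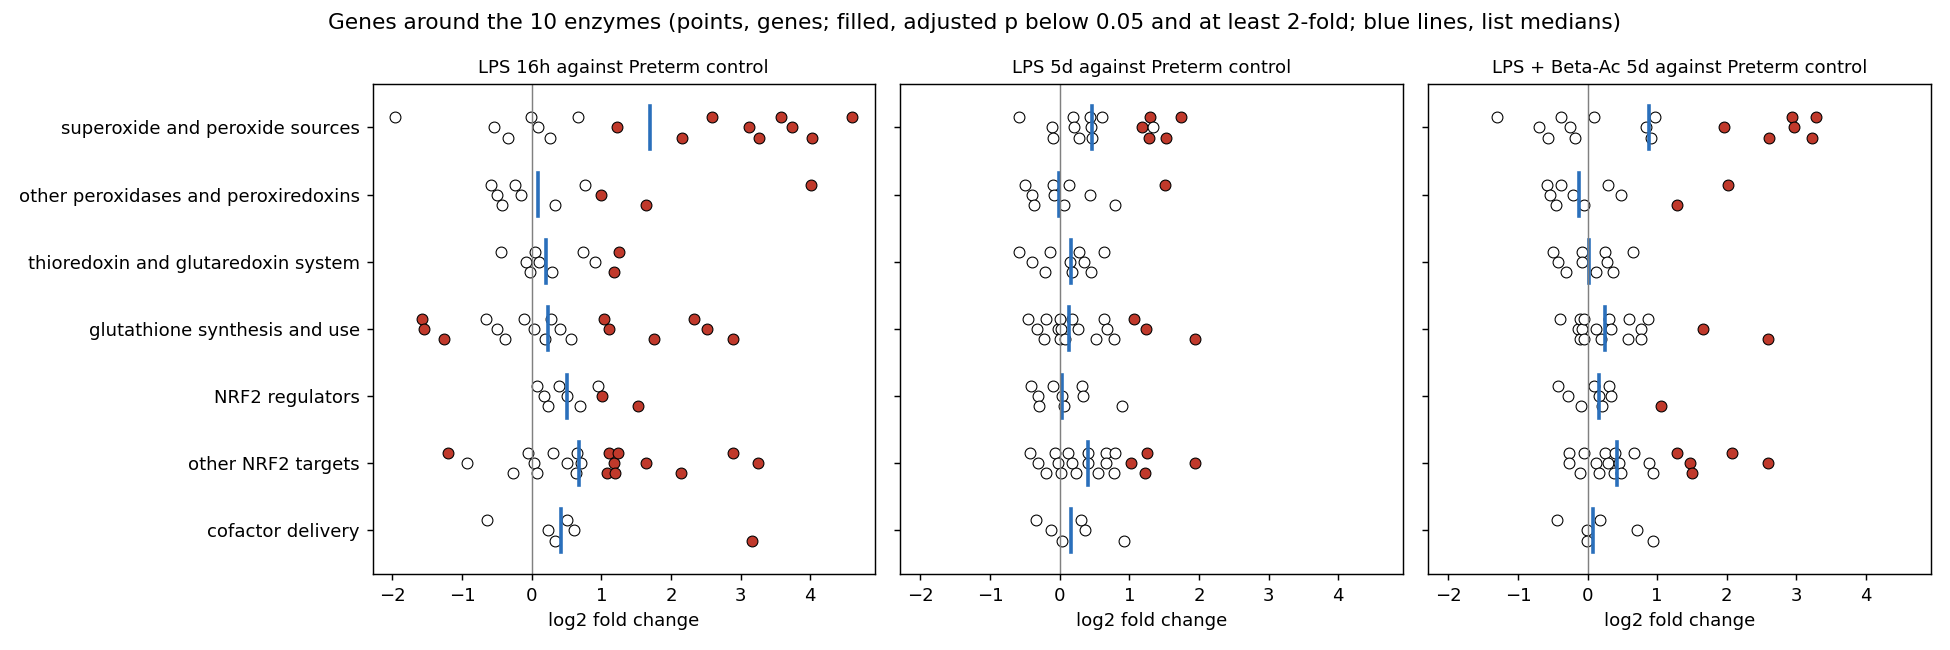
Log2 fold change of the genes of 7 lists around the enzymes in the 3 comparisons of LPS-exposed animals with preterm controls; points are genes, filled points had an adjusted p below 0.05 and at least a 2-fold difference, and blue lines are list medians. At LPS 16h the median of the superoxide and peroxide sources was 1.69, beside 0.09 for the other peroxidases and peroxiredoxins.

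For each called enzyme the genes with the most similar log2 CPM over the 16 animals were also listed, by Pearson r. The points share the libraries and the group differences, so r was given a second time on deviations from the group means. SAMSN1, CD177 and CCL7 had an r of 0.99 with SOD2, and 0.02, 0.49 and 0.30 on deviations. For TXNRD1 these were BAZ1A (0.98 and 0.82), TRAF3 (0.98 and 0.68) and CD274 (0.97 and 0.61). For CAT they were LTA4H (0.94 and 0.61), SLC50A1 (0.93 and 0.60) and MGST1 (0.93 and 0.57). GPX1 was most like TRABD (0.97 and 0.93), ESRRA (0.97 and 0.90) and PRDX5 (0.96 and 0.91), which kept nearly the same r on deviations, and GPX2 was most like CCDC71L (0.95 and 0.84) and FICD (0.94 and 0.67).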

How the data were processed

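Polyadenylated RNA of the frozen left lung was sequenced as 75-base read pairs. The authors assigned the reads with kallisto against Mmul_10, summed them per gene, analysed them with DESeq2 and deposited 1 table of read counts per gene (no version or strand setting was found in the labels or methods). The deposited values are whole-number counts that had not been normalized, and they were recorded as unit other because the layout of the table could not be read automatically.

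From them, TMM factors and log2 CPM (prior count 2) were computed, and limma 3.58.1 in R 4.3.3 (trend and robust options) fitted 1 mean for each of 5 groups to 16 animals. This log-scale fit was used in place of a count model for that reason. Genes were tested that reached 0.371 CPM in 2 or more animals and a sum of 15 counts, and p-values were adjusted over all 19192. A call required an adjusted p below 0.05 and 2-fold. The depth of each library, 20169363 to 48052891 counts, leaves sampling error small for every enzyme but GPX2. Animals are separate fetuses, and their division among sequencing runs is not stated. Simulated counts tested the code.

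The 10 enzymes, the lists and the comparisons were chosen with earlier results of these data known. Genes named were the 10 enzymes, up to 2 called genes in each direction with the largest change in a list, 9 fixed genes, and the 3 genes most like each called enzyme (some genes under this rule are not reported here); values of the marker genes are given as sums. Alternatives were limma-voom, other scalings, filters and prior counts, fewer groups fitted, no minimum fold, and each animal left out. Figures were drawn with matplotlib 3.10.9 in Python 3.11.15.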

Additional observations from a re-analysis of the deposited data

Results flagged for a closer look

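The response to LPS differed between delivery after 16 hours and delivery after 5 days for 3 of the 10 enzymes by the limma test of LPS 16h against LPS 5d. SOD2 was 5.24 higher on the log2 scale at 16 hours, TXNRD1 was 1.88 higher and GPX2 was 1.36 higher. No animal stood far from the others of its group by Dixon's test in the 20 sets of 4 animals examined.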

How the results depend on the processing

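Depth limits GPX2, which has 5 to 46 counts a library and could not be given a value under the stricter filter (1 CPM in at least 4 animals). No called difference changed direction, while some that were not called and lay near 0 did, such as SOD1 at LPS 16h against preterm controls under library totals (−0.03). The number of enzymes called at LPS 16h against preterm controls was 5 in the reported fit, 4 to 6 over the alternatives and 5 with each animal left out in turn. Without a minimum fold it was 2 at LPS 5d (SOD2 and CAT), 2 with LPS + Beta-Ac (SOD2 and GPX1), 1 at term (SOD2) and 7 for LPS 16h against LPS 5d. Of all 19192 tested genes, 2827, 3316, 766 and 6727 reached the adjusted p in these comparisons, in the same order. With each animal left out in turn the number of enzymes called was 1 to 2 at LPS 5d, the 2 without LPS 5d animal 239 (SOD2 and CAT). With only the compared groups fitted it was 0 for LPS + Beta-Ac against LPS 5d, where SOD2 kept a log2FC of 1.58 at a limma adjusted p of 0.0685, a fit with fewer samples. Thinning of the LPS 16h libraries, added after the data were seen, gave GPX2 0.87 and 0.99. No paired analysis was possible because the groups share no replicate numbers.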
